A study of Homo sapiens with 6 samples.

Results

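The passage of a cell through G1 into DNA replication was followed here at the level of RNA for 10 genes: the D-type cyclins CCND1, CCND2 and CCND3, the E-type cyclins CCNE1 and CCNE2, the cyclin-dependent kinases (CDKs) CDK4 and CDK6, and the CDK inhibitors CDKN1A, CDKN1B and CDKN2C. They were chosen by symbol. All 10 were found among the 59609 gene names of the deposited tables, and all 10 passed the filter on low values (at least 1 FPKM in at least 1 library) that left 16600 genes for testing.

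D-type cyclins are made in response to growth factors and nutrients, bind CDK4 or CDK6 and phosphorylate the retinoblastoma protein RB, which releases E2F transcription factors. E2F activity raises E-type cyclins, which with CDK2 drive entry into S phase. The INK4 inhibitors, p18 from CDKN2C among them, bind CDK4 and CDK6, while the CIP/KIP inhibitors p21 (CDKN1A) and p27 (CDKN1B) bind cyclin-CDK complexes and block CDK2. Much of the control of p27 and of cyclin D1 acts on protein stability, which RNA does not show.

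95D is a human lung cancer cell line, labelled wild type. Cells were seeded for 24 h and then held for 48 h in glucose-free DMEM (2 libraries used), in glutamine-free DMEM (1 library used) or in control DMEM (2 libraries used). Both deprived media contained 10% dialyzed serum. For the control medium the labels do not say that the serum was dialyzed, so lack of a nutrient and the change of serum cannot be told apart in comparisons with control. A second glutamine-deprived library is labelled, but no column name matches it, and it was not analysed here. The labels do not state whether replicates came from separate cultures; the spread behind each p-value is that of these libraries alone and may be technical.

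Levels are FPKM (fragments divided by transcript length and library depth) after scaling between libraries. Inferred depth ran from 34540000 to 48940000 reads per library, and the replicates' log2 levels correlated across genes with r = 0.985 in glucose deprivation and r = 0.991 in control. Of the epithelial markers KRT18 (15.96 to 21.7 FPKM) and KRT8 (4.15 to 5.51 FPKM) were present, EPCAM and CDH1 were below 0.25 FPKM in every library and KRT19 was listed at 0. Of 5 lung lineage markers only NKX2-1 passed the filter, at 0.709 to 1.17 FPKM. NAPSA stood at 0.213 to 0.418 FPKM, SFTPC reached at most 0.0184 FPKM, and SFTPB and SCGB1A1 were listed at 0. None of the 4 leukocyte or 3 endothelial markers passed the filter. Of the 4 fibroblast markers COL1A1 passed; they summed to 0.439 to 0.454 FPKM in glucose deprivation, 2.11 FPKM in the glutamine-deprived library (COL1A1 1.83 FPKM) and 0.863 to 1.10 FPKM in control. The 4 mesenchymal markers, VIM above all, summed to 152 to 167 FPKM in glucose deprivation, 103 FPKM in glutamine deprivation and 91.4 to 92.6 FPKM in control; the part of either list in the results below was not tested.

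Without glucose 8 of the 10 genes fell relative to control and 0 rose, at an adjusted p under 0.05 (limma). CCND1 fell furthest, to a mean of 7.31 FPKM against 16.6 FPKM in control, followed by CCND3, CCNE2, CDKN2C, CDKN1A and CCNE1, while CDK4 and CDKN1B did not pass the test. Across all genes tested 28.1% were lower and 26.5% higher, or 54.7% in either direction, so a call by itself is common in this comparison. The median log2 fold change of the 10 genes was -0.60, beside 0.03 over all genes tested. In bulk RNA, fewer cells in a phase of the cycle and less RNA per cell cannot be told apart.

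Without glutamine 6 of the 10 genes fell relative to control, CCNE2 furthest and then CCND1, CDK4, CDKN2C, CDKN1B and CCNE1, and 1 rose, CCND2. This split rests on the scaling: on the values as deposited and under upper-quartile scaling 4 fell and 2 rose (CCND2 and CDKN1A), and when libraries were scaled to their summed FPKM 1 fell, CCNE2, and the same 2 rose. Of all genes tested 26.3% were lower and 24.8% higher, 51.0% in either direction. These shares are for trimmed-mean scaling. Of genes called, 48.5% were higher there, against 67.5% on the values as deposited and 68.2% under upper-quartile scaling. Scaled to the summed FPKM it was 91.1%. The shares of all genes tested are thus no measure for the counts under those other scalings. With trimmed-mean scaling the median of the 10 genes was -0.29, beside 0.05 over all genes. With 1 library, the fit takes the spread of the other 2 groups as that of glutamine deprivation, and no replicate checks these values. The controls are the same libraries as in the comparison with glucose deprivation.

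Set directly against glucose deprivation, with dialyzed serum on both sides, glutamine deprivation left 7 of the 10 genes higher (the 3 D-type cyclins, CCNE1, CDK6, CDKN1A and CDKN2C), 2 lower (CDK4 and CDKN1B) and CCNE2 without a call. Of all genes, 22.5% were higher and 22.0% lower, 44.5% in either direction. The median of the 10 genes was 0.33, beside 0.01 over all genes. Its libraries are those of the other comparisons.

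**Figure D1:**
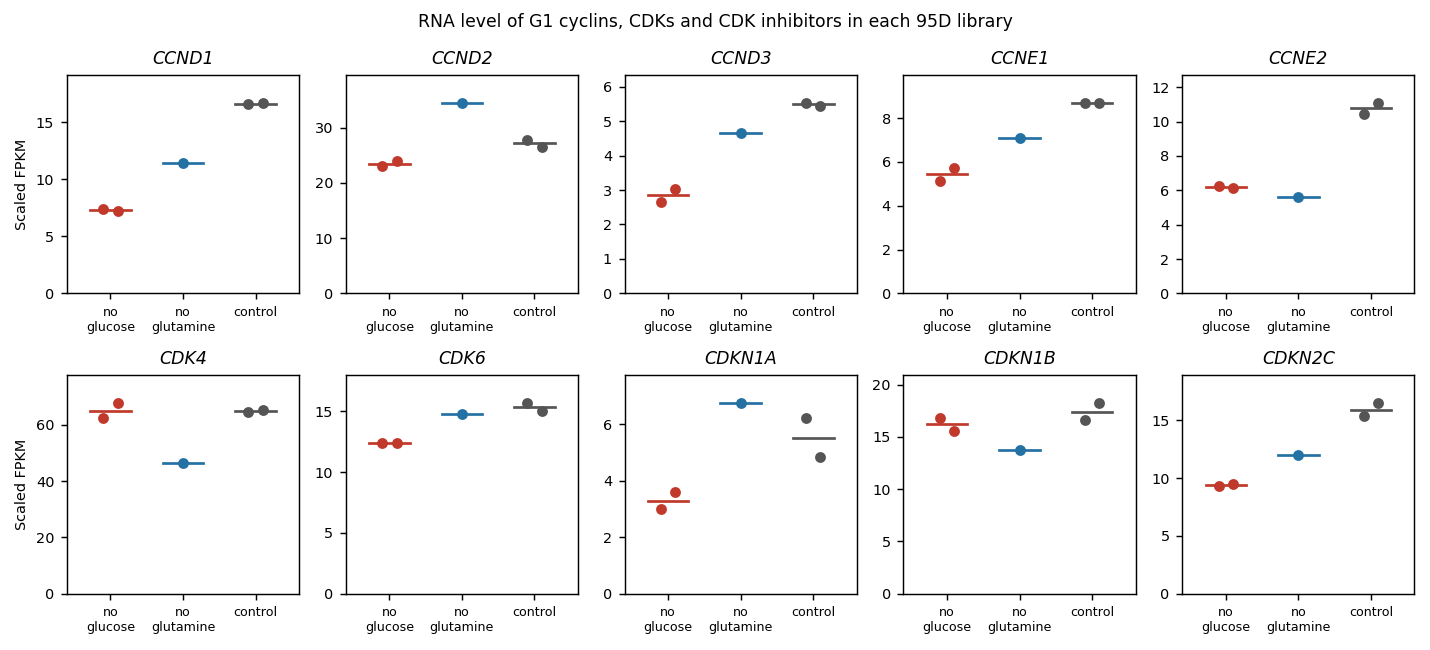
Scaled FPKM (vertical axes, from 0) of each gene in each library, with points for libraries and bars for group means, in glucose deprivation, glutamine deprivation and control. On this scaling CCND1, CCND3, CCNE1, CCNE2, CDK6 and CDKN2C lie below control in all deprived libraries. For CCND3, CCNE1, CDK6 and CDKN2C that order rests on the scaling. Scaled to the summed FPKM, the log2 fold changes without glutamine were 0.070 for CCND3, 0.025 for CCNE1, 0.25 for CDK6 and -0.082 for CDKN2C. CCND1 gave -0.21 there and CCNE2 -0.56. CCND2 is highest without glutamine (34.4 FPKM) and CDK4 is lowest there (46.2 FPKM).

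RefSeq start-site windows on GRCh38.p14, from 250 bases before to 50 bases after the annotated start, were at hand for 7 of the 10 genes. Those of the 4 genes with 1 window each are shown 5′ to 3′, since each has a single annotated start in that table: CCNE1 and CDKN1A, which fell without glucose, and CDKN1B and CDK4, which did not pass that test. In the first 3 capitals mark the Sp1 letters GGGCGG on either strand. In CDK4 they mark the E-box CACGTG, which MYC and related factors bind. The windows lie at chr19:29811741-29812040 (+) for CCNE1, chr6:36678464-36678763 (+) for CDKN1A, chr12:12717118-12717417 (+) for CDKN1B and chr12:57752261-57752560 (-) for CDK4.
CCNE1: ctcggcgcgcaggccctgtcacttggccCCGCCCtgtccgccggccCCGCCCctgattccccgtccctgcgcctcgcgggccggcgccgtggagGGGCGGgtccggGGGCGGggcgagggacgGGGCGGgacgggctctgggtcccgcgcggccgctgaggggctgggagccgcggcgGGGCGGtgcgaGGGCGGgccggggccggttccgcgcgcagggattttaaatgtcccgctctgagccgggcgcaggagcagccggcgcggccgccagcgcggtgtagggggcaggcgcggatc
CDKN1A: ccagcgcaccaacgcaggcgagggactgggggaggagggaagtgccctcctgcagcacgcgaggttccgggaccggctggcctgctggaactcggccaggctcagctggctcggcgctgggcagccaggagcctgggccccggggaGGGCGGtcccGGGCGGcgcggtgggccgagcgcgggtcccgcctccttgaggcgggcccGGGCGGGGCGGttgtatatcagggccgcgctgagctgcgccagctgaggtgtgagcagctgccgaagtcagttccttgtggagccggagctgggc
CDKN1B: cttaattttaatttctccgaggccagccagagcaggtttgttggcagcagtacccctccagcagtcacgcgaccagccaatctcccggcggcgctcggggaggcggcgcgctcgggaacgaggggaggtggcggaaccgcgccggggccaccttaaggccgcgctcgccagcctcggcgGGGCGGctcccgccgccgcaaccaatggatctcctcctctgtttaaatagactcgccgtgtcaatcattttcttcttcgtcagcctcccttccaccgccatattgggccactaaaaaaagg
CDK4: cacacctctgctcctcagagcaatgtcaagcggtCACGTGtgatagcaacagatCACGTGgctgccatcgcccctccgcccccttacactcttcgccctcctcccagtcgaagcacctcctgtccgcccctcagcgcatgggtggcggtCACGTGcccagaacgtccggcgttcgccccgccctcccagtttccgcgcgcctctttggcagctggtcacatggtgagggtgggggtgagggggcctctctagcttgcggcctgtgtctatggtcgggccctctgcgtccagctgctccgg

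GGGCGG occurred 7 times in the CCNE1 window, 4 times in CDKN1A (a pair of them sharing 1 base), 3 times in CDK4 and 1 time in CDKN1B, and at least 1 time in 45.0%, and at least 3 times in 15.8%, of the 35116 windows of the table. In genes with several windows, all of which fell without glucose, it occurred 5, 4 and 0 times in those of CCND3, 3 and 0 times in those of CDK6 and 0, 6 and 1 times in those of CDKN2C. CACGTG occurred 3 times in the CDK4 window, a number reached in 0.0940% of all windows, 0 times in the other 3 shown, and 1 time each in 1 window of CDK6 and 2 of CDKN2C; 7.26% of all windows held at least 1. The E2F letters TTTCGCGC, TTTGGCGC or TTTCCCGC, searched on both strands, were in no window of these 7 genes and in 2.74% of all windows. The same held for TGANTCA (7.71% of all windows), TGACGTCA (1.85%), TGATGNAA (3.62%), TATAAA (11.5%) and TTTGAA (15.2%), each on both strands. A match describes letters only. MYC RNA itself, looked up after these values were seen, gave -0.08 ± 0.08 log2 without glucose and 0.01 ± 0.10 without glutamine (adjusted p = 0.463 and 0.918).

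Among the D-type cyclins, CCND1, the cyclin most often amplified in tumours and a classical target of mitogen signalling, stood at 7.37 and 7.25 FPKM without glucose, at 11.4 FPKM without glutamine and at 16.6 and 16.7 FPKM in control. Glucose deprivation was lowest, with the glutamine-deprived library between it and control. With 1 library on a side, lack of overlap says little: all 10 genes lacked it in both comparisons with glutamine deprivation. The log2 fold change was -1.08 ± 0.04 (SE, adjusted p = 4.91e-06, limma) without glucose, the 140th lowest of the 16600 genes tested. It was -0.50 ± 0.05 without glutamine (adjusted p = 0.000199, but 0.383 when libraries were scaled to their summed FPKM), and glutamine deprivation exceeded glucose deprivation by 0.58 ± 0.05 (adjusted p = 0.000188).

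CCND2, which many cell types use beside or in place of CCND1, had the highest level of the 3 in every library. It stood at 23.1 and 23.9 FPKM without glucose, 34.4 FPKM without glutamine and 27.7 and 26.5 FPKM in control. Thus the deprivations lay on opposite sides of control. It fell by 0.20 on the log2 scale without glucose (SE 0.04, adjusted p = 0.0055) and rose by 0.33 ± 0.05 without glutamine (adjusted p = 0.0014), and the direct difference was 0.53 ± 0.05 (adjusted p = 0.000273). The fall without glucose is small: its adjusted p was 0.0757 without control replicate 1, 0.0572 with no filter on low values, 0.0668 under upper-quartile scaling and 0.70 when libraries were scaled to their summed FPKM.

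CCND3, the D-type cyclin best known from lymphoid cells and differentiating tissues, was the least abundant of the 3. It stood at 2.67 and 3.02 FPKM without glucose, 4.66 FPKM without glutamine and 5.52 and 5.45 FPKM in control. Glucose deprivation lay well below the rest. The log2 fold change was -0.76 ± 0.06 without glucose (adjusted p = 5.4e-05) and 0.56 ± 0.08 for glutamine against glucose deprivation (adjusted p = 0.00096). Without glutamine the difference from control, -0.20 ± 0.08, did not pass the test (adjusted p = 0.063), with a 95% interval of -0.37 to -0.02; it passed when either glucose-deprived library was left out (adjusted p = 0.0366 and 0.0377), and its sign turned, to 0.070, when libraries were scaled to their summed FPKM.

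Ratios within a library do not depend on the scaling between libraries. CCND1 made up 22.3% and 21.2% of the summed FPKM of the 3 D-type cyclins without glucose and 22.7% without glutamine, against 33.3% and 34.3% in control. The share was thus similar in both deprivations and lower than in both controls. The sum, which does depend on the scaling, was 33.1 and 34.1 FPKM without glucose, 50.5 FPKM without glutamine and 49.8 and 48.6 FPKM in control. CCND2 supplied 69.7% and 69.9% of it without glucose, 68.1% without glutamine and 55.7% and 54.5% in control. An exact two-sided permutation test of 2 libraries against 2 cannot give a p below 0.333, so these ratios are descriptions.

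The E-type cyclins, partners of CDK2, both fell in both deprivations, although for CCNE1 without glutamine the call was lost and its sign turned, to 0.025, when libraries were scaled to their summed FPKM. CCNE1 stood at 5.13 and 5.72 FPKM without glucose, 7.09 FPKM without glutamine and 8.67 and 8.68 FPKM in control. CCNE2 stood at 6.28 and 6.12 FPKM without glucose, 5.59 FPKM without glutamine and 10.5 and 11.1 FPKM in control. For CCNE1 the glucose-deprived libraries were the lowest, whereas for CCNE2 the glutamine-deprived library was. CCNE1 changed by -0.59 ± 0.07 log2 without glucose (adjusted p = 0.000222) and by -0.26 ± 0.08 without glutamine (adjusted p = 0.0300). CCNE2 changed by -0.71 ± 0.05 without glucose (adjusted p = 3.3e-05) and by -0.84 ± 0.06 without glutamine (adjusted p = 5.92e-05), the 327th lowest of all genes tested there.

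Between the deprivations CCNE1 was higher without glutamine by 0.33 ± 0.08 (adjusted p = 0.0121), while CCNE2 gave -0.13 ± 0.06 (adjusted p = 0.142, 95% interval -0.27 to 0.02). The ratio of CCNE1 to CCNE2 was 0.817 and 0.935 without glucose, 1.27 without glutamine and 0.827 and 0.783 in control. CCNE2 thus exceeded CCNE1 in the glucose-deprived and control libraries and not in the glutamine-deprived one. The CCNE1 call without glutamine is not stable. Its adjusted p was 0.12 without control replicate 1, 0.122 without control replicate 2, 0.252 on the values as deposited, 0.31 under upper-quartile scaling, 0.925 when scaled to the summed FPKM and 0.109 with no filter on low values. The call between the deprivations was lost without control replicate 1 (adjusted p = 0.0568), without control replicate 2 (0.0578) and with no filter (0.0773).

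CDK4 and CDK6 are the catalytic partners of the D-type cyclins, and CDK4 was the most abundant of the 10 genes in every library. It stood at 62.2 and 67.6 FPKM without glucose, 46.2 FPKM without glutamine and 64.4 and 65.3 FPKM in control. The glucose-deprived libraries lay on both sides of the controls, and the glutamine-deprived library lay below all others. The log2 fold change was 0.00058 ± 0.05 without glucose (adjusted p = 0.993, 95% interval -0.11 to 0.11). CDK4 fell by 0.48 on the log2 scale without glutamine (SE 0.06, adjusted p = 0.000439), and the direct difference was -0.48 ± 0.06 (adjusted p = 0.000676). When scaled to the summed FPKM both calls were lost (-0.17, adjusted p = 0.529, and -0.28, adjusted p = 0.318).

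CDK6 was lowest in the other deprivation. It stood at 12.4 FPKM in both glucose-deprived libraries, 14.8 FPKM without glutamine and 15.6 and 15.005 FPKM in control. It fell by 0.29 on the log2 scale without glucose (SE 0.04, adjusted p = 0.000721). The difference without glutamine was -0.05 ± 0.05 (adjusted p = 0.46, 95% interval -0.16 to 0.07) and turned to between 0.11 and 0.25 under the other 3 scalings. Glutamine deprivation exceeded glucose deprivation by 0.24 ± 0.05 (adjusted p = 0.00632). Scaled to the summed FPKM, the calls without glucose and between the deprivations were lost, with larger SEs (-0.18 ± 0.16, adjusted p = 0.403, and 0.43 ± 0.20, adjusted p = 0.0903). The ratio of CDK4 to CDK6 was 5.03 and 5.46 without glucose, 3.13 without glutamine and 4.12 and 4.35 in control, so the deprivations lay on opposite sides of control. For each FPKM of CDK4 and CDK6 together there were 0.444 and 0.427 FPKM of D-type cyclins without glucose, 0.828 without glutamine and 0.622 and 0.606 in control.

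**Figure D2:**
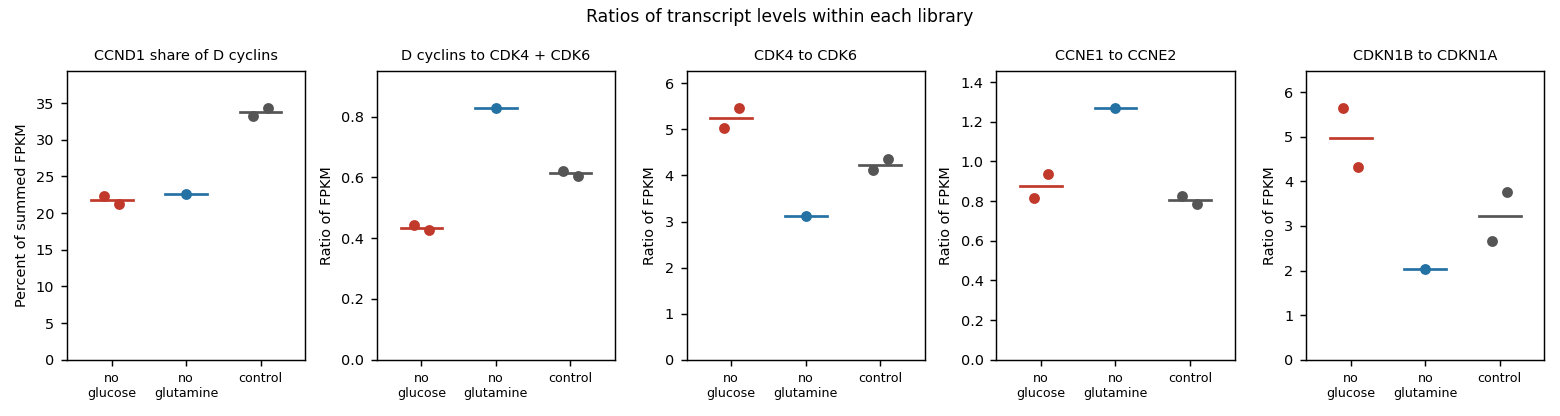
Ratios of FPKM (vertical axes, from 0) within each library, with points for libraries and bars for group means. The CCND1 share of D-type cyclins is low in both deprivations (21.2% to 22.7%), whereas the ratios of D-type cyclins to their kinases and of CDK4 to CDK6 lie on opposite sides of control in the 2 deprivations.

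Of the CIP/KIP inhibitors, CDKN1A is the classical transcriptional target of p53 and is also induced by other stresses. It stood at 2.99 and 3.60 FPKM without glucose, 6.74 FPKM without glutamine and 6.22 and 4.85 FPKM in control. The controls differed more from each other, in proportion, than for the other 9 genes, and both glucose-deprived libraries lay below both. CDKN1A fell by 0.60 on the log2 scale without glucose (SE 0.11, adjusted p = 0.00265). Without glutamine the difference was 0.25 ± 0.14 (adjusted p = 0.158, 95% interval -0.06 to 0.57). The direct difference, 0.85 ± 0.14 (adjusted p = 0.00196), was the largest among the 10 genes and the 538th highest of all genes tested. With no filter on low values the calls without glucose and between the deprivations were lost (adjusted p = 0.104 and 0.0806). The difference from control without glutamine passed on the values as deposited (0.39, adjusted p = 0.0297), under upper-quartile scaling (0.40, adjusted p = 0.0457) and when scaled to the summed FPKM (0.53, adjusted p = 0.00686). It also rests on the controls: it was 0.39 without control replicate 1 (adjusted p = 0.0873) and 0.089 without control replicate 2 (adjusted p = 0.635).

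CDKN1B, which encodes p27, an inhibitor high in quiescent cells and removed by the SKP2 ubiquitin ligase, varied less. It stood at 16.8 and 15.6 FPKM without glucose, 13.8 FPKM without glutamine and 16.6 and 18.2 FPKM in control. Glucose deprivation and control overlapped (-0.10 ± 0.06, adjusted p = 0.222, 95% interval -0.24 to 0.05). CDKN1B fell by 0.32 on the log2 scale without glutamine (SE 0.08, adjusted p = 0.00975), and the direct difference was -0.22 ± 0.08 (adjusted p = 0.0474). The call without glutamine was lost without control replicate 2 (adjusted p = 0.0763), with no filter (0.109) and under the other 3 scalings (0.123 to 0.95). The direct call was lost without control replicate 1 (0.0813), control replicate 2 (0.0837), glucose deprivation replicate 1 (0.158) or glucose deprivation replicate 2 (0.0588), with a pseudocount of 0.1 (0.0529), with the variance trend over the mean log2 level (0.0987), with no filter (0.21) and under the other 3 scalings (0.159 to 0.934), and it was kept with the robust option and with a filter on the mean. CDKN1B exceeded CDKN1A by 5.64 and 4.32 times without glucose, 2.04 times without glutamine and 2.67 and 3.76 times in control.

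CDKN2C, the INK4 inhibitor p18 and itself a target of E2F factors, stood at 9.32 and 9.44 FPKM without glucose, 12.01 FPKM without glutamine and 15.4 and 16.5 FPKM in control. The 3 groups lay in the same order as for CCND1. The log2 fold change was -0.70 ± 0.05 without glucose (adjusted p = 3.31e-05) and -0.38 ± 0.06 without glutamine (adjusted p = 0.00175, but 0.744 when scaled to the summed FPKM). Between the deprivations it was 0.33 ± 0.06 (adjusted p = 0.00447).

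**Figure D3:**
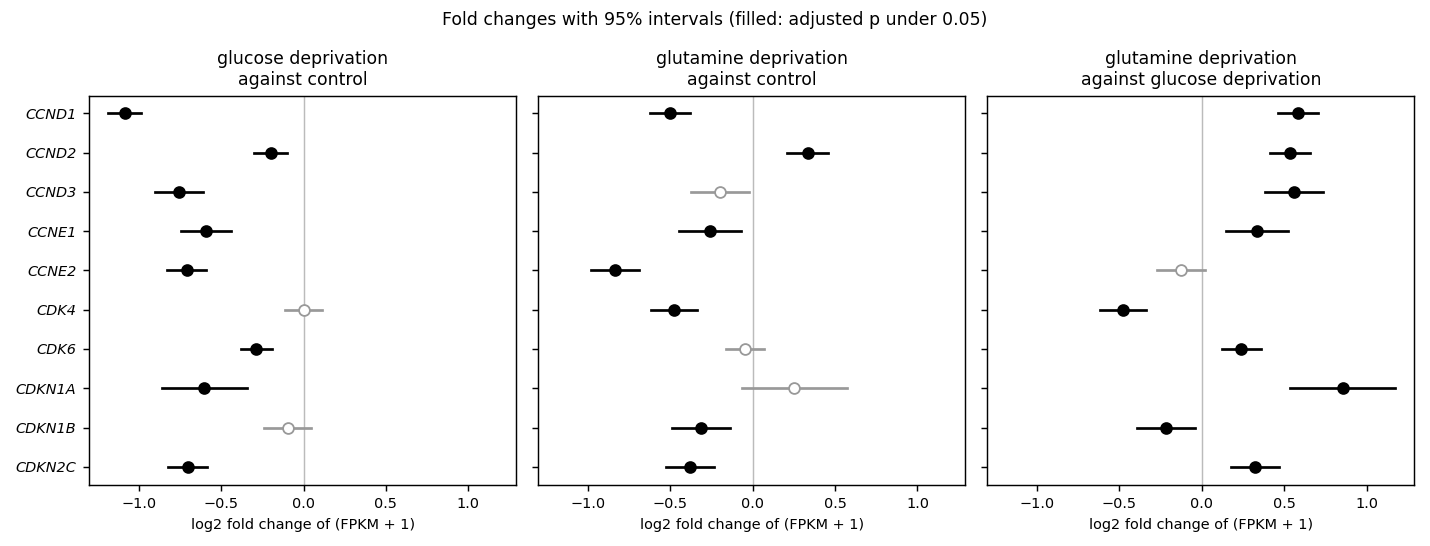
Log2 fold changes of FPKM + 1 (horizontal axis) with 95% intervals for the 10 genes in the 3 comparisons, filled where the adjusted p was under 0.05. With trimmed-mean scaling glucose deprivation leaves 8 genes lower than control, beside 28.1% of all genes tested. Without glutamine most of the genes lie below control, and CCND2 and, without a call, CDKN1A lie above it. Scaled to the summed FPKM, CCND3, CCNE1 and CDK6 turn sign there. Against glucose deprivation CDK4, CDKN1B and, without a call, CCNE2 are lower without glutamine and the others higher.

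Ordered by level, CDK4 came first, CCND2 second and CCND3 last in all 3 groups. In control CDKN1B and CCND1 (means of 17.4 and 16.6 FPKM), CDKN2C and CDK6 (15.9 and 15.3 FPKM), and CDKN1A and CCND3 (5.53 and 5.49 FPKM) overlapped as neighbours in that order. Without glucose only CDKN1A and CCND3 did (3.29 and 2.84 FPKM), and CCND1 took sixth place, below CDKN2C. Without glutamine CCND1 was also sixth. The levels rest on between 340 inferred reads, for CDKN1A without glucose, and 9828, for CDK4 in control. Counting error was thus 1.01% to 5.42% per value, which leaves out error from amplification and culture. The inferred reads behind it were checked on single-exon genes alone.

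Fold changes depend on how libraries are scaled, since the median of all genes moves with the scaling. When each library was scaled to its summed FPKM, that median was 0.11 without glucose, 0.30 without glutamine and 0.19 in the direct comparison. Of the 10 genes 6 were then called lower without glucose, 1 lower and 2 higher without glutamine, and 6 higher in the direct comparison. Of all genes called under that scaling 68.1% were higher without glucose, 91.1% without glutamine and 85.5% in the direct comparison. The shares of all genes tested given above, for trimmed-mean scaling, do not apply to these counts. SEs were larger too, 0.18 against 0.05 for CCND1 in the direct comparison, so a lost call need not mean a smaller difference. A scaling moves the genes of a library nearly alike, so values relative to the median of all genes hardly depend on it by construction, and they are given as descriptions over the 4 scalings. CCND1 lay between -1.11 and -1.09 without glucose and between -0.55 and -0.50 without glutamine. CDK4 lay between -0.52 and -0.46 and CCND2 between 0.29 and 0.35 without glutamine. CDKN1A lay between 0.84 and 0.85 in the direct comparison. Of genes called without glucose 48.5% were higher, against 54.2% on the values as deposited, 60.0% under upper-quartile scaling and 68.1% when scaled to the summed FPKM. The same shares were 48.5%, 67.5%, 68.2% and 91.1% without glutamine, and 50.5%, 68.2%, 62.5% and 85.5% between the deprivations.

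On GRCh38 (GENCODE release 29), over the whole annotated gene with exons, introns and UTRs, CCND1 lies on chromosome 11 from 69641087 to 69654474, CCND2 on chromosome 12 from 4273772 to 4305350 and CCND3 on chromosome 6 from 41934933 to 42050357. CCNE1 lies on chromosome 19 from 29811898 to 29824308 and CCNE2 on chromosome 8 from 94879770 to 94896678. CDK4 lies on chromosome 12 from 57747727 to 57756013 and CDK6 on chromosome 7 from 92604921 to 92836594. CDKN1A lies on chromosome 6 from 36676460 to 36687339, CDKN1B on chromosome 12 from 12715058 to 12722371 and CDKN2C on chromosome 1 from 50960745 to 50974633.

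Related genes were read as lists beside the 10. Against their counts stand the shares of all genes tested: 26.5% higher and 28.1% lower without glucose, and 24.8% higher and 26.3% lower without glutamine. Where a pair of log2 fold changes is given, the first is without glucose and the second without glutamine, each against control; the medians of all genes tested were 0.03 and 0.05. These values were computed with trimmed-mean scaling alone. Of the other CDK inhibitors, all 5 tested, only CDKN3 passed, and it fell in both deprivations (-0.71 ± 0.06 log2 without glucose and -0.63 ± 0.07 without glutamine); its product is a phosphatase that acts on CDK1 and CDK2. The INK4 gene CDKN2A stood at 10.6 and 11.1 FPKM without glucose, 11.4 FPKM without glutamine and 11.5 and 11.9 FPKM in control, and its differences from control were -0.10 ± 0.05 and -0.03 ± 0.06. CDKN2D gave -0.51 ± 0.19 and -0.34 ± 0.24, CDKN2B 0.18 ± 0.10 and -0.09 ± 0.12, and CDKN1C 0.15 ± 0.13 and 0.05 ± 0.16, none of them called.

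The list of CDK2, cyclin A and CDK activation had 5 of 7 genes lower and 1 higher without glucose and 6 lower and 0 higher without glutamine, with medians of -0.33 and -0.50 log2. CDK2, the kinase of the E-type cyclins, fell by 0.43 (SE 0.04) and by 0.32 (SE 0.05). The cyclin A gene CCNA2 changed by -0.84 ± 0.05 and -0.78 ± 0.07, the CDK-activating phosphatase gene CDC25A by -0.53 ± 0.05 and -0.59 ± 0.06, and the mitotic kinase gene CDK1 by -0.33 ± 0.04 and -0.76 ± 0.05.

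Of 13 RB family and E2F genes 4 rose and 4 fell without glucose, and 3 rose and 4 fell without glutamine, with medians of -0.00440 and 0.07 log2. These counts are near the shares over all genes and are no result about the family. The RB relative RBL1 rose without glucose (0.45 ± 0.04), and its relative RBL2 rose in both deprivations (0.46 ± 0.05 and 0.18 ± 0.06). The E2F partner gene TFDP1 fell in both (-0.41 ± 0.06 and -0.20 ± 0.07), and E2F2 rose without glutamine (0.37 ± 0.08). The repressor E2F genes E2F4 (-0.24 ± 0.04 and -0.28 ± 0.05) and E2F5 (-0.16 ± 0.05 and -0.30 ± 0.06) fell in both.

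Of 14 genes that turn over G1 regulators 7 fell and 3 rose without glucose, and 8 fell and 2 rose without glutamine (medians -0.15 and -0.26), beside 28.1% and 26.3% of all genes that fell. SKP2, which marks p27 for destruction, changed by -0.65 ± 0.04 and -0.44 ± 0.05. The cyclin kinase subunit gene CKS2 changed by -0.94 ± 0.05 and -0.95 ± 0.07, and the ubiquitin ligase subunit gene RBX1 by -0.29 ± 0.05 and -0.73 ± 0.06. AMBRA1, the adaptor that directs D-type cyclins to degradation, rose in both (0.40 ± 0.05 and 0.24 ± 0.06). USP2, a deubiquitinase that acts on cyclin D1, fell without glucose (-0.31 ± 0.08) and rose without glutamine (0.52 ± 0.10).

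Among 13 tested upstream regulators 7 rose and 1 fell without glucose and 8 rose and 1 fell without glutamine (medians 0.25 and 0.28), beside 26.5% and 24.8% of all genes that rose. The AP-1 gene JUN (1.95 ± 0.04 and 0.72 ± 0.05) and the stress factor gene DDIT3 (2.48 ± 0.05 and 1.39 ± 0.06) led the rises, and the β-catenin gene CTNNB1 fell in both (-0.55 ± 0.04 and -0.62 ± 0.05). FOS and EGR1 did not pass the filter. Of 12 other p53 targets 8 fell and 4 rose without glucose, and 3 fell and 4 rose without glutamine (medians -0.32 and -0.05); the counts without glutamine are near the shares over all genes. The antiproliferative gene BTG2 had the signs of CDKN1A (-0.54 ± 0.06 and 0.23 ± 0.07), whereas the growth-arrest gene GADD45A rose in both (1.19 ± 0.07 and 0.26 ± 0.09), as did SESN2 (0.34 ± 0.04 and 1.59 ± 0.05) and BBC3 (0.83 ± 0.11 and 0.61 ± 0.13), and BAX fell in both (-0.28 ± 0.05 and -0.39 ± 0.07).

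Proliferation markers changed too. Of 10, 9 fell and 0 rose without glucose and 7 fell and 2 rose without glutamine (medians -0.52 and -0.37), and their part in the results above was not tested. The mitotic cyclin genes CCNB1 (-1.15 ± 0.05 and -0.81 ± 0.06) and CCNB2 (-0.56 ± 0.05 and -0.46 ± 0.06), the ribonucleotide reductase gene RRM2 (-0.54 ± 0.05 and -0.54 ± 0.06) and the checkpoint kinase gene BUB1 (-0.83 ± 0.04 and -0.46 ± 0.05) fell in both. MKI67, by contrast, fell by 0.28 (SE 0.07) without glucose and rose by 0.73 ± 0.09 without glutamine. Cyclins and CDKs outside the G1 machinery, 18 in all, rose in 7 cases and fell in 2 without glucose and rose in 5 and fell in 5 without glutamine (medians 0.08 and 0.05), with the counts without glutamine near the shares over all genes. Among them were CDK5 (-0.78 ± 0.10 and -0.53 ± 0.13), CCNC (-0.51 ± 0.04 and -0.87 ± 0.05), CCNK (0.42 ± 0.08 and 0.81 ± 0.10), CCNL2 (0.55 ± 0.04 and 0.21 ± 0.05) and CDK10 (0.87 ± 0.05 and 0.10 ± 0.06, the second without a call).

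**Figure D4:**
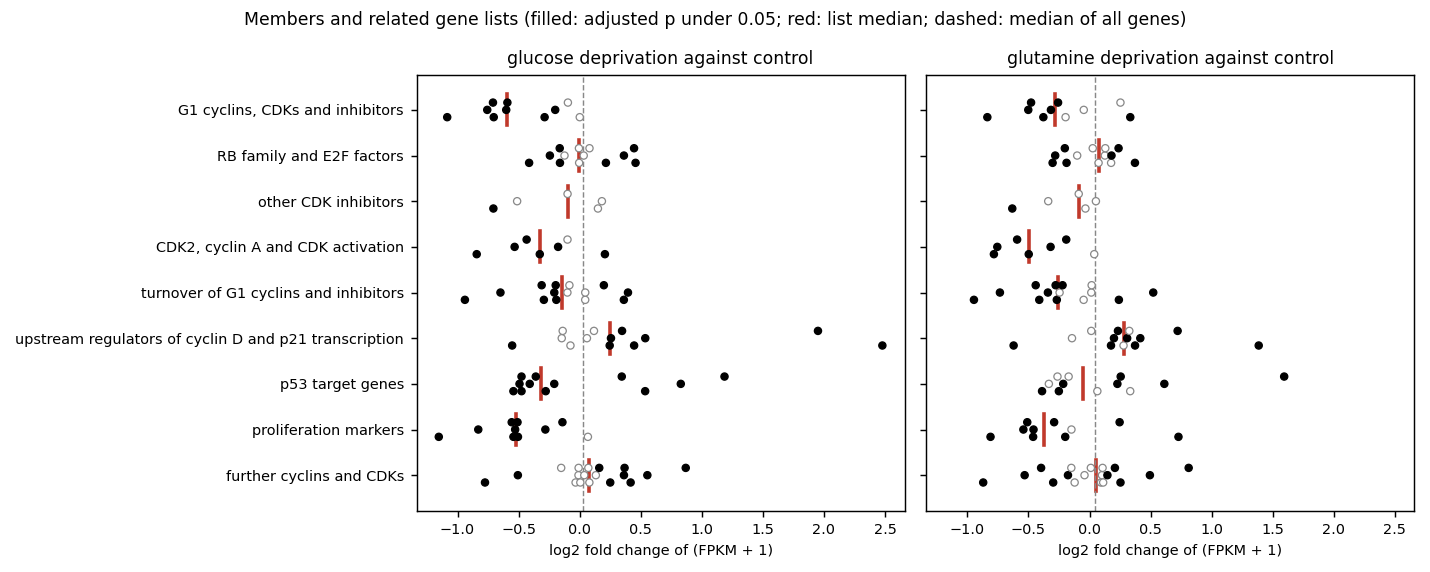
Log2 fold changes of FPKM + 1 (horizontal axis) of the 10 genes and of 8 lists of related genes, without glucose (left) and without glutamine (right), each against control; filled points had an adjusted p under 0.05, red bars are list medians and the dashed line the median of all genes. The 10 genes have a median of -0.60 without glucose and -0.29 without glutamine, and the RB and E2F list has members on both sides of 0.

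For 2 of the genes the most similar profiles were sought among 4472 tested genes averaging 10 FPKM or more, as the distance between the pairs of log2 fold changes from control. CDKN1A itself averaged 4.88 FPKM, so genes near its own level, BTG2 among them, were not candidates. BTG2, at -0.54 and 0.23 log2 beside -0.60 and 0.25 for CDKN1A, lay nearer to it than FSCN1, the closest candidate. Closest to CCND1 were CDC20, an activator of the anaphase-promoting complex (distance 0.0736), the linker histone gene H1-4 (0.0835) and HMGB3 (0.126). Closest to CDKN1A were the actin-bundling gene FSCN1 (0.0878), the autophagy gene ATG9A (0.0885) and TOB2, of the BTG/TOB antiproliferative family (0.113). These distances rest on 2 fold changes from 5 libraries.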

How the data were processed

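Libraries of 95D RNA depleted of ribosomal RNA were sequenced as read pairs, 150 bases each, per the labels' protocols. HISAT2 2.0.5 and StringTie on hg38 are named in the submitters' processing notes; settings, annotation and strand use are not given in the sources used here. FPKM, which the authors divided by length and depth, is the unit read from the deposited values; no header names the unit, which was inferred from fractional values and from single-exon genes, of which 95.1% to 95.8% with 1 to 20 inferred reads came out whole within 0.05 reads. Depth was inferred from the same steps. Among the glutamine columns 1 carries the name of a glucose-deprived library and was not used, so 5 of 6 labelled libraries entered.

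FPKM were divided by factors of a trimmed mean of log ratios (trimming 30% by ratio and 5% by abundance). limma 3.58.1 in R 4.3.3 was fitted to log2(FPKM + 1) of 16600 genes over all 5 libraries, with a coefficient per group, 2 residual degrees of freedom and variances moderated over a trend on inferred reads (FPKM times exon length in GENCODE release 29). Fold changes on this scale understate those of low genes. Adjusted p-values are two-sided Benjamini-Hochberg values over all genes tested, with a threshold of 0.05, and intervals are 95%. Same-numbered libraries of control and glucose deprivation did not deviate together (r = -0.02 over genes), so numbers were not used as pairs.

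The 10 genes, the lists and the fit were chosen with earlier results of these data known. Beside the 10, genes named were the up to 3 with the largest absolute fold change among those called in each list and comparison with control, CDK2, all other CDK inhibitors and the 3 nearest profiles; MYC was added after its values were seen. Alternatives were other scalings, a pseudocount of 0.1, other filters and variance trends, a replicate block and leaving out each library.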

Additional observations from a re-analysis of the deposited data

Results flagged for a closer look

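The effects of the 2 deprivations differed, by the direct test of glutamine against glucose deprivation across all genes (limma, adjusted p under 0.05), for 9 of the 10 genes. The log2 differences were 0.58 for CCND1, 0.53 for CCND2, 0.56 for CCND3, 0.33 for CCNE1, 0.24 for CDK6, 0.85 for CDKN1A and 0.33 for CDKN2C, all higher without glutamine, and -0.48 for CDK4 and -0.22 for CDKN1B, both lower without glutamine. With this scaling CCND2 was the only one of the 10 with a call in opposite directions against control. On the values as deposited CDKN1A also had one. Under upper-quartile scaling and scaling to the summed FPKM only CDKN1A had one. There the fall of CCND2 without glucose was not called (limma, adjusted p = 0.0668 and 0.70). The test called 44.5% of all genes tested, and it rests on 1 glutamine-deprived library.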

How the results depend on the processing

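Each fold change of the 10 genes was recomputed under 14 alternatives without glucose and 13 in each comparison with glutamine deprivation; 348 of these values kept direction and side of the threshold, 37 lost a call, 5 gained one and 10 changed sign. Among those with a sign change, only CCNE1 had a call to lose. Under scaling to the summed FPKM the sign changed for CDKN1B without glucose (0.011), for CCND3 (0.070), CCNE1 (0.025) and CDK6 (0.25) without glutamine and for CCNE2 between the deprivations (0.048). CDK6 without glutamine was also 0.11 on the values as deposited and 0.12 under upper-quartile scaling. CDK4 without glucose was -0.020 without control replicate 1, -0.0019 without control replicate 2, -0.053 without glucose deprivation replicate 2 and 0.064 without glucose deprivation replicate 1. Scaling to the summed FPKM called 5496 genes without glucose (9072 as reported), 6197 without glutamine (8469) and 4272 between the deprivations (7382), and 3 of the 10 genes (1 lower, 2 higher) rather than 7 (6 lower, 1 higher) without glutamine. Leaving out 1 library at a time called 5639 to 9048 genes without glucose, 5508 to 8430 without glutamine and 5322 to 6150 between the deprivations, and 7 to 8, 5 to 8 and 7 to 8 of the 10 genes. The lowest counts came without control replicate 1 (5639 and 5580 genes without glucose and glutamine) and control replicate 2 (5859 and 5508). With the replicate number as a block, 8, 6 and 8 of the 10 genes were called (8793, 7514 and 6307 genes in all); CCNE1 without glutamine (adjusted p = 0.0855) and CDKN1B between the deprivations (adjusted p = 0.0834) were no longer called. No filter on low values called 6 of the 10 without glucose, beside 6337 genes in all. In both comparisons with glutamine deprivation it also called fewer of the 10, and fewer genes in all, than reported. More genes were tested in that setting, so the shares over 16600 genes do not apply to it. CCND1, CCND3, CCNE1, CCNE2 and CDKN2C without glucose, CCND2 and CCNE2 without glutamine, and CCND1, CCND2, CCND3 and CDKN2C between the deprivations were called under every alternative run. Counting error from the inferred reads was at most 5.42% per value for these 10 genes. The single glutamine-deprived library limits the comparisons that use it.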
